A study of Mus musculus with 4 samples.

Results

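The Mef2, sine oculis (Six2, Six4 and Six5) and Eya genes encode transcription factors and cofactors of the muscle programme. Here 9 of them (Mef2a, Mef2c, Mef2d, Six2, Six4, Six5, Eya1, Eya2 and Eya4) were taken by gene symbol from the 19505 genes measured in mouse muscle progenitor cells. Each had 1 probe set on the array, so no choice between probe sets was needed. The cells were collected from collagenase-digested muscle of C57Bl/6 mice by flow cytometry as positive for the integrins CD29 and ITGA7. There were 2 arrays of aged mice (2 years) and 2 arrays of young mice (5 weeks), with no treatment, transgene or deletion named in either group. Sex, the number of mice per array and whether mice were pooled are not stated in the sources at hand, so the p-values reflect the spread between arrays, which may be technical. The younger mice were 5 weeks old, an age at which skeletal muscle is still growing, so growth and ageing cannot be told apart in this comparison.

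MEF2 proteins bind AT-rich sites through a MADS domain and work with the myogenic helix-loop-helix factors, such as MyoD and myogenin, to switch on genes of differentiated muscle. Class IIa histone deacetylases hold them back, and p38 MAP kinases and calcium-dependent kinases relieve or increase their activity. Six2, Six4 and Six5 belong to the sine oculis family of homeodomain factors, which bind the MEF3 site. They have weak activation domains of their own and recruit EYA proteins, which are coactivators with a phosphatase domain, while DACH proteins act with them as corepressors. Together they act upstream of and beside the myogenic factors in the embryo and in satellite cells, the stem cells of adult muscle.

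The sites these factors bind are shown because the target genes given further on were read against them. RefSeq promoter windows of 300 bases (250 before to 50 after an annotated start, assembly GRCm38.p6) were at hand for 7 of the 9 genes. They were searched on both strands for the MEF2 site CTANNNNTAG with A or T at each N, and for the MEF3 core TCAGGTT, of which TCAGGTTTC is a longer form that contains it. Matches are in capitals, and each sequence is written 5′ to 3′ on the strand of its gene. The promoter of Mef2a itself holds a MEF2 site that begins 2 bases before the start, and the windows of Six4 and Mef2c hold a MEF3 core on the opposite strand. Myog, the gene of myogenin, is shown as the textbook MEF3 gene, and Klf2, Jun and Xirp2 as examples of listed MEF2 target genes with this site.
Mef2a (chr7:67372841-67372970, minus strand): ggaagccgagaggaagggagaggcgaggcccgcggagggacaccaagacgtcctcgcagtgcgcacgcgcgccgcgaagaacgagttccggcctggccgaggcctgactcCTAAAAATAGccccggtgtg
Klf2 (chr8:72318934-72318963, plus strand): tataccgcggCTAAATTTAGgctgagcccg
Jun (chr4:95052236-95052265, minus strand): acatcatgggCTATTTTTAGggattgactg
Xirp2 (chr2:67445918-67445947, plus strand): agctcagttcCTAAAAATAGgtgctaggtt
Myog (chr1:134289890-134290003, plus strand): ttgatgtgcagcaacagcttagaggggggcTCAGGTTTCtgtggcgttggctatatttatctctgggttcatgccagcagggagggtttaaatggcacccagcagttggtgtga
Six4 (chr12:73113326-73113354, minus strand): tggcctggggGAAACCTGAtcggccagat
Mef2c (chr13:83503784-83503802, plus strand): atAACCTGAaatgaagcaa

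No other form of the MEF2 site was searched. The form searched was rare, being present in at least 1 window of 0.636% of the 27025 genes in the promoter table. It was present in 1 of the 7 member genes with a window and in 4 of 16 genes of a list of known MEF2 targets. The MEF3 core was present in 4.73% of all genes, in 2 of the 7 member genes and in 1 of 10 genes of a list of known sine oculis targets. The longer MEF3 form was present in 0.511% of all genes, and among the members in Six4. A match is a stretch of letters and not a measured binding site, and the target lists were written from genes known to be bound or controlled by these factors.

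The 4 arrays read the genes of the labelled cell type and those of other cells. All 12 satellite cell markers were measured, none was below the median of the intron control probe sets of its array, and 8 lay above the 95th percentile of these controls in every array. Pax7 and Cdh15 lay above that percentile in 0 arrays, Vcam1 in 1 and Myf5 in 2. Intron controls serve as a background here, with medians of 6.25 to 6.76 log2 units over the arrays. Of the fibroblast and of the pericyte and smooth muscle markers, 6 of 10 and 4 of 11 also lay above that percentile in every array. The mean level of 15 mature fibre markers was 12.52 in aged replicate 1 and 9.89 to 10.18 in the other arrays, and that of 10 endothelial markers was 9.38 in young replicate 2 and 6.57 to 7.47 in the others. Aged replicate 1 therefore stands apart in the fibre markers and young replicate 2 in the endothelial markers. Aged replicate 2 had the highest neutrophil and B and T cell marker means (10.65 and 8.001), as given further on. Values said to rest on an array are given without it as well. How well exon controls separate from intron controls reflects RNA and labelling quality; as an area under the curve this was 0.792 and 0.819 for the aged arrays and 0.849 and 0.823 for the young arrays. In mixed samples like these, fewer cells of a type and less RNA per cell cannot be told apart.

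Of the 9 members, Eya2 had the largest difference between the ages, and Mef2a and Mef2d were also read higher in both aged arrays than in both young arrays. Mef2c, Six2, Six4, Six5, Eya1 and Eya4 overlapped between the ages. Levels are deposited log2 values and differences are aged minus young in the same log2 units, with the standard error (SE) of a limma fit over 19572 probe sets. No member passed the threshold of 0.05 after Benjamini-Hochberg adjustment over all probe sets, and no probe set of the array did (0% called). At an unadjusted p under 0.05 there was 1 member, Eya2, of 9, where 7.35% of all probe sets reached this in either direction, 3.36% with aged higher and 3.99% with aged lower. The groups did not overlap with aged higher for 3 members, beside 18.2% of all probe sets, and with aged lower for 0, beside 18.4% (36.6% in either direction). The median difference over the 9 members was 0.34, beside 0.00 over all probe sets (-0.0013 before rounding). Leaving out aged replicate 2 lowered this median to 0.05, and leaving out aged replicate 1 raised it to 0.62.

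**Figure D1:**
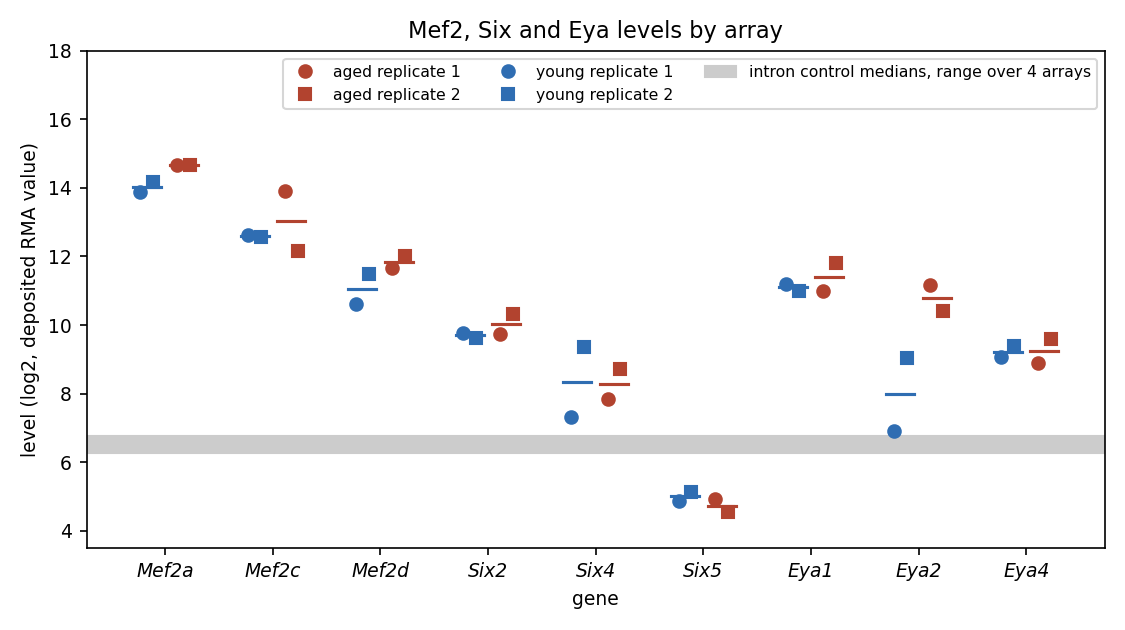
Deposited log2 level (vertical axis) of each of the 9 genes (horizontal axis) in the 4 arrays, with young arrays in blue and aged arrays in red, circles for replicate 1, squares for replicate 2 and short lines for group means; the grey band spans the intron control medians. Aged and young points are separate for Mef2a, Mef2d and Eya2 and overlap for the other genes, and Six5 lies below the band; heights of different genes are not comparable, since each has its own probes.

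Mef2a, a MEF2 gene expressed in most tissues, was read at 14.68 and 14.67 in the aged arrays and at 13.88 and 14.17 in the young arrays. The aged arrays lay together above both young arrays, with a gap of 0.50 between the lowest aged and the highest young value. The group means were 14.67 ± 0.01 (SD, n = 2) and 14.02 ± 0.20 (SD, n = 2). The difference was 0.65 ± 0.29 (SE), with a 95% interval of -0.07 to 1.38 (limma adjusted p of 0.704, unadjusted p of 0.0699). It was 0.51 to 0.80 when each array was left out in turn, so that no array turned its sign. The 3 genes with the most similar profile over the 4 arrays, by root mean square distance of gene-centred values, were Cep170 (0.03), Ly6d (0.03) and Olfr293 (0.03). Such a profile was common, since 1040 of the 18535 genes compared lay within 0.2 log2 units of it.

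Mef2d, a second broadly expressed MEF2 gene with a muscle-specific splice form, was read at 11.65 and 12.03 in aged and at 10.61 and 11.48 in young arrays. Young replicate 1 was the lowest of the 4, and young replicate 2 lay 0.18 below the lower aged array. The means were 11.84 ± 0.26 (SD, n = 2) and 11.04 ± 0.61 (SD, n = 2). The difference of 0.80 ± 0.39 (SE) had a 95% interval of -0.18 to 1.77 and a limma adjusted p of 0.733. It was 0.36 when young replicate 1 was left out and 1.23 when young replicate 2 was left out, so that the young arrays decided most of its size.

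Mef2c, which is induced during muscle differentiation and is also known from endothelial, myeloid and B cells, was read at 13.91 and 12.17 in aged and at 12.62 and 12.58 in young arrays. One aged array lay above and the other below the pair of young arrays, which differed by 0.04. The difference was 0.44 ± 0.58 (SE), with a 95% interval of -0.996 to 1.88 and a limma adjusted p of 0.915. Without aged replicate 1 it was -0.43 (adjusted p of 0.976) and without aged replicate 2 it was 1.31 (adjusted p of 0.617, unadjusted p of 0.0192). The high Mef2c reading was in the array with the highest mature fibre marker mean. Of 15 such markers, all measured, the mean level was 12.52 and 9.91 for the aged and 10.18 and 9.89 for the young arrays. In an array 0 to 2 of them lay below the intron median. Of the 15, 14 had a positive difference and 1, Ryr1, a negative one (-1.50). Ryr1 was read at 5.30 and 4.62 in aged and at 6.57 and 6.34 in young arrays. The endothelial marker mean, highest in young replicate 2, was 7.47 and 6.57 for the aged and 6.84 and 9.38 for the young arrays, with 2 to 8 of 10 markers below the intron median. The macrophage marker mean was also highest in aged replicate 1, at 7.01 beside 6.23 in aged replicate 2 and 6.14 and 5.69 in the young arrays, with 6 to 8 of 11 markers below the intron median. The B and T cell marker mean was highest in aged replicate 2, at 8.001 beside 6.25 in aged replicate 1 and 5.13 and 5.003 in the young arrays. The part of these cells in the Mef2c readings was not tested.

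**Figure D2:**
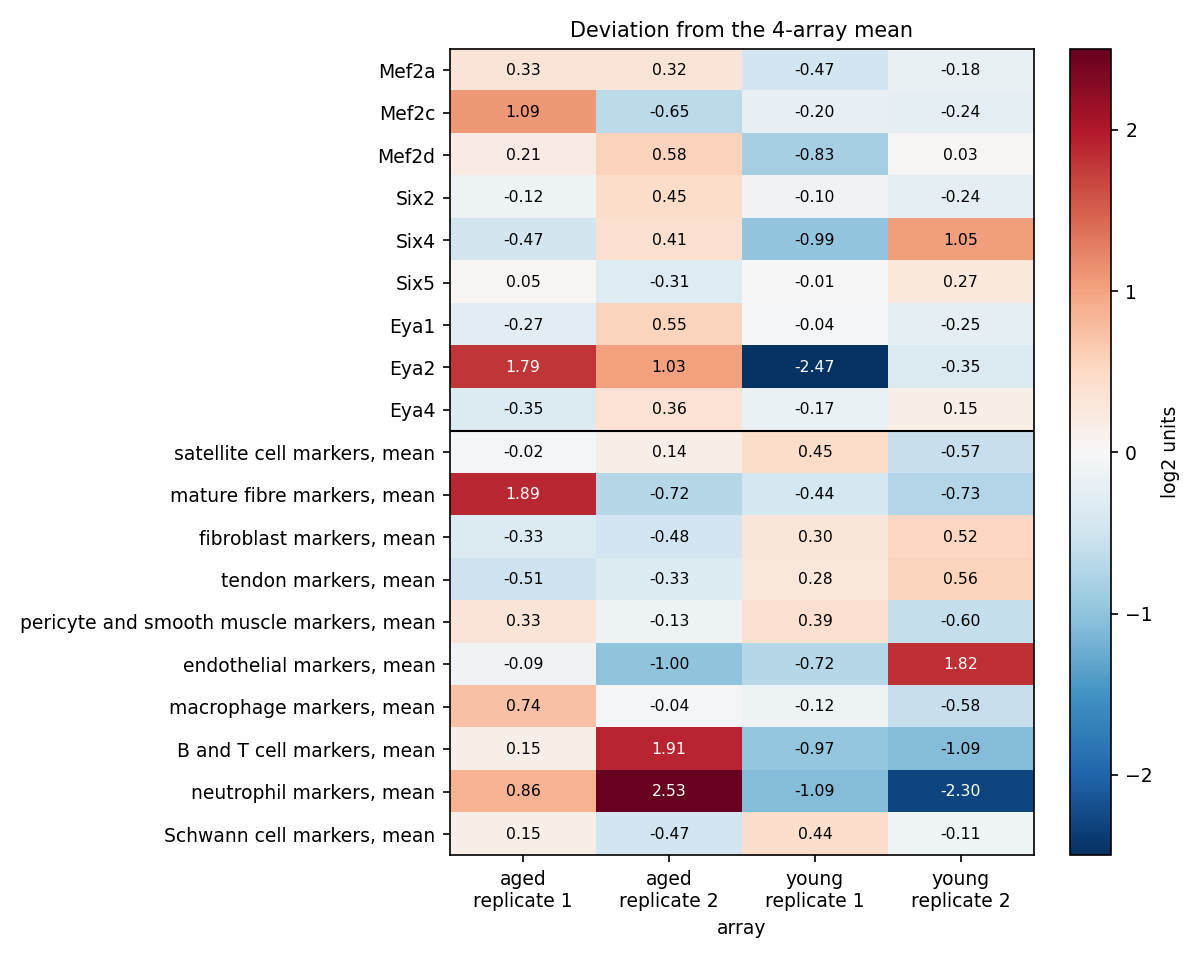
Deviation of each array from the mean of the 4 arrays, in log2 units given in each cell and by colour (red above, blue below), for the 9 genes (upper rows) and for the mean level of each list of cell type markers (lower rows). Mef2c and the mature fibre markers are both highest in aged replicate 1 (1.09 and 1.89), and Eya2 is above its mean in both aged arrays (1.79 and 1.03) and lowest in young replicate 1 (-2.47).

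Among the sine oculis genes, Six4 is expressed in muscle precursors and satellite cells and Six2 is known from kidney progenitors and connective tissue. Six2 was read at 9.75 and 10.32 in aged and at 9.77 and 9.63 in young arrays. Only aged replicate 2 stood above the other arrays, and the difference was 0.34 ± 0.33 (SE; limma adjusted p of 0.883). Leaving out aged replicate 2 gave 0.05, and leaving out aged replicate 1 gave 0.62. Six4 was read at 7.85 and 8.72 in aged and at 7.32 and 9.37 in young arrays. The young arrays were the lowest and the highest of the 4, with a spread of 2.04 that enclosed both aged arrays. Its difference of -0.06 ± 0.71 (SE) had a 95% interval of -1.81 to 1.69, so that changes of over 1 log2 unit in either direction lay within the error. Leaving out young replicate 1 gave -1.08, and leaving out young replicate 2 gave 0.96. Six5, a gene next to the myotonic dystrophy kinase gene Dmpk, was read at 4.92 and 4.55 in aged and at 4.86 and 5.14 in young arrays. Every one of these values was under the intron control median of its array, and their difference, -0.26 ± 0.31 (SE; limma adjusted p of 0.902), is one between readings at background level.

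Eya2, a coactivator of sine oculis proteins expressed in the embryonic somite and in satellite cells, was read at 11.18 and 10.42 in aged and at 6.92 and 9.04 in young arrays. Both aged arrays lay above both young arrays, with a gap of 1.38, and the young arrays differed from each other by 2.12. The means were 10.80 ± 0.54 (SD, n = 2) and 7.98 ± 1.496 (SD, n = 2). The difference of 2.82 ± 0.72 (SE) had a 95% interval of 1.05 to 4.59, an unadjusted p of 0.00819 and an adjusted p of 0.507 in limma. Against the intron controls the aged readings stood at the 93.2 and 90.1 percentiles and the young readings at 61.1 and 82.1, so that young replicate 1 was read not far above background. Leaving out young replicate 1 gave 1.76 and leaving out young replicate 2 gave 3.88 (adjusted p of 0.122), and without aged replicate 1 it was 2.44 with an unadjusted p of 0.0508. It was thus positive whichever array was left out, while its size changed by more than 1.5 times within the young group.

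Several marker lists also separated the aged from the young arrays, and the control probe sets did so narrowly. Neutrophil markers (9 of 9 measured) had a mean level of 8.98 and 10.65 for the aged and 7.03 and 5.82 for the young arrays, and B and T cell markers (8 of 10 measured) 6.25 and 8.001 against 5.13 and 5.003. Of the neutrophil markers 3 of 9 lay below the intron median in either aged array and 3 and 6 in the young arrays, and of the B and T cell markers 5 and 2 of 8 in aged and 6 and 8 in young arrays. Macrophage markers (11 of 12 measured) had a mean level of 7.01 and 6.23 for the aged and 6.14 and 5.69 for the young arrays, with 6 to 8 of 11 below the intron median. The neutrophil and the B and T cell marker means were highest in aged replicate 2, and the macrophage marker mean and Eya2 in aged replicate 1. Of the 9 neutrophil markers 8 had a positive difference, the largest for Elane (6.77), Mpo (6.72) and Ngp (5.96). Retnlg had a negative one (-1.52). All 8 B and T cell markers had a positive difference, from Jchain (6.24) down to Cd79b (0.03). Of the 11 macrophage markers 10 had a positive difference, from Ptprc (1.79) down to Itgam (0.03), and Fcgr1 a negative one (-0.01). The fibroblast marker mean (10 of 12 measured) was lower in both aged arrays, at 14.16 and 14.02 against 14.79 and 15.01. It rested mainly on Col1a1, Col1a2 and Col3a1, which differed by -3.22, -2.65 and -2.10. Of the 10 markers 8 had a negative difference, such as Dcn (-0.05), and 2 a positive one (Pi16, 0.64, and Cd248, 0.66). The tendon marker mean (8 of 8 measured) was also lower in both aged arrays, at 9.46 and 9.64 against 10.25 and 10.53. It rested mainly on Kera (-2.85) and Tnmd (-2.06), while Comp differed by -0.01 and Thbs4 by 0.18. Satellite cell markers (12 of 12 measured) had a mean level of 12.81 and 12.98 for the aged and 13.29 and 12.27 for the young arrays, and so did not separate the ages. The exon against intron separation was lower in both aged arrays, though aged replicate 2 (0.819) and young replicate 2 (0.823) were close. The part of these cells and of RNA quality in the Eya2 difference was not tested. The 3 genes closest to Eya2 in profile were Pms2, Entpd4 and Aox3, at distances of 0.37, 0.41 and 0.42, and no gene lay within 0.2.

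The other EYA genes overlapped between the ages. Eya1, which acts with sine oculis proteins in limb muscle precursors, was read at 10.98 and 11.80 in aged and at 11.20 and 11.001 in young arrays. Only aged replicate 2 was above the young arrays, and the difference of 0.29 ± 0.37 (SE; limma adjusted p of 0.913) was -0.12 without it. Eya4, known from the inner ear and heart, was read at 8.89 and 9.59 in aged and at 9.07 and 9.38 in young arrays. The young values lay inside the aged values, and the difference was 0.02 ± 0.36 (SE; limma adjusted p of 0.996), with a 95% interval of -0.88 to 0.91. Whether Eya2 differed between the ages by more than Eya1 and Eya4 was not tested.

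Of 6 other measured genes of these families and their Dach partners, 4 were read at background level. Mef2b (4.42 and 4.10 in aged, 4.33 and 4.58 in young), Six3 (5.71 and 5.09, 5.39 and 5.58), Six6 (3.49 and 3.81, 3.46 and 3.26) and Dach2 (3.74 and 3.62, 3.62 and 3.54) lay below the intron median in every array. Eya3, a broadly expressed EYA gene, was read at 8.93 and 8.91 in aged and at 8.65 and 8.88 in young arrays, differing by 0.16 ± 0.29 (SE). Dach1, encoding a corepressor partner, was read at 6.18 and 6.08 in aged and at 4.53 and 6.63 in young arrays. Of these 4 values, 3 lay below the intron medians of their arrays, and 6.63 lay beside a median of 6.62. The difference of Dach1, between readings near background, was 0.55 ± 0.68 (SE), and -0.50 without young replicate 1. Of these 6 genes 0 reached an unadjusted p under 0.05 in limma (smallest adjusted p of 0.890).

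**Figure D3:**
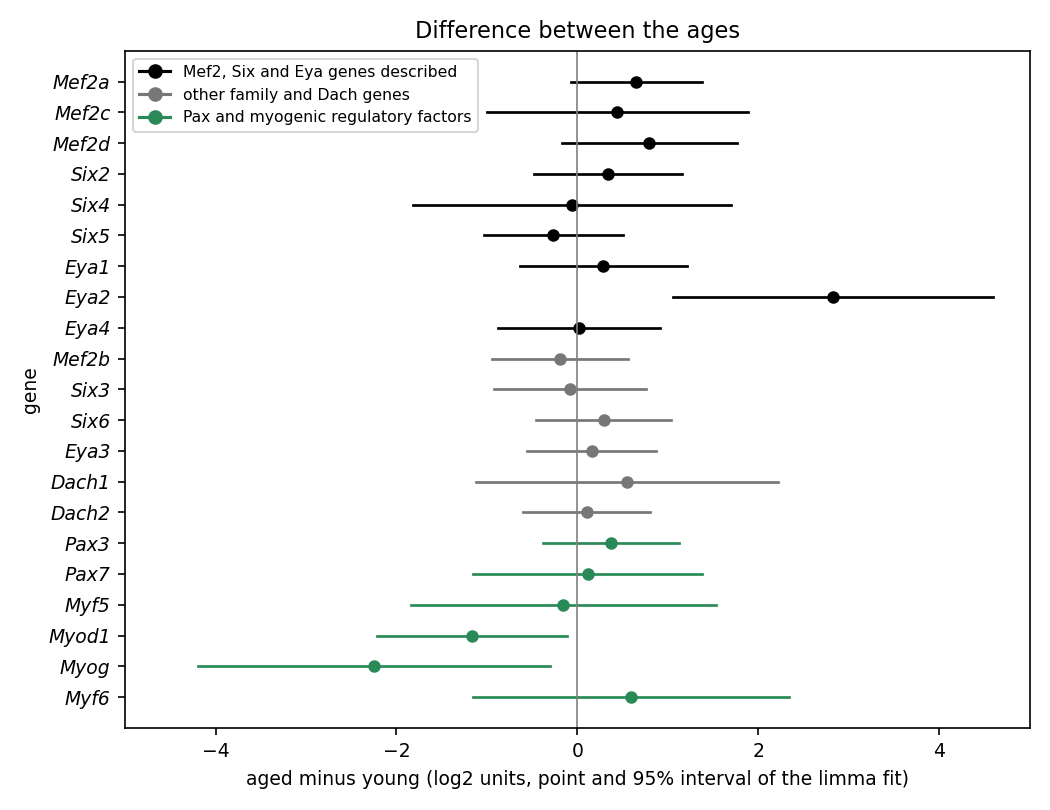
Difference between the ages (horizontal axis, aged minus young, log2 units) of each gene (vertical axis), as a point with the 95% interval of the limma fit, for the 9 genes described (black), other genes of these families and Dach genes (grey), and Pax and myogenic regulatory factors (green). The intervals of Eya2 (1.05 to 4.59), Myod1 and Myog do not include 0, before adjustment for the number of probe sets tested, and those of the other genes do.

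Among the myogenic factors that MEF2 and sine oculis proteins work with, Myog and Myod1 had negative differences at an unadjusted p under 0.05. Myog, encoding myogenin, was read at 11.80 and 13.87 in aged and at 14.38 and 15.80 in young arrays, differing by -2.25 ± 0.79 (SE; limma adjusted p of 0.609, unadjusted p of 0.0299). Myod1, encoding MyoD, was read at 8.31 and 9.41 in aged and at 9.98 and 10.07 in young arrays, differing by -1.16 ± 0.43 (SE; limma adjusted p of 0.647). Both aged arrays were below both young arrays for these genes, as for 18.4% of all probe sets. The value for Myog was -1.22 without aged replicate 1, -1.54 without young replicate 2 and -3.29 without aged replicate 2, and that for Myod1 was -0.62 without aged replicate 1. Pax7, Pax3, Myf5 and Myf6 had differences of 0.12 ± 0.51, 0.37 ± 0.31, -0.15 ± 0.68 and 0.59 ± 0.71 (SE), and Pax3 alone among them had aged arrays above both young arrays. With arrays left out in turn these ranged from -0.41 to 0.64 for Pax7, 0.22 to 0.53 for Pax3, -1.20 to 0.89 for Myf5 and -0.22 to 1.40 for Myf6.

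Differences of the regulators and cofactors of MEF2 were centred near 0. Of 25 listed, 24 were measured, 11 with a positive and 13 with a negative difference, and their median was -0.02. The side with more genes depended on the setting, since 15 of 24 were positive after a second quantile normalization (median 0.04) and 14 without aged replicate 1 (median 0.14), 15 without young replicate 1 (0.05) and 13 without young replicate 2 (0.04). An unadjusted p under 0.05 was reached by 1 (4.17%, beside 7.35% of all probe sets). That gene was Mapk12, encoding the p38 gamma kinase of muscle, read at 6.64 and 6.57 in aged and at 5.56 and 5.62 in young arrays. These 4 values lay below the intron medians of their arrays, and the unadjusted p of 0.012 became 0.0502 without aged replicate 1. Hdac9, encoding a class IIa deacetylase and itself a MEF2 target, was read at 9.605 and 8.35 in aged and at 7.90 and 8.08 in young arrays, differing by 0.98 ± 0.47 (SE; limma adjusted p of 0.723), by 0.36 without aged replicate 1 and by 1.61 without aged replicate 2. Camk4, encoding a calcium-dependent kinase, was below the intron median in all 4 arrays. Camk2d, encoding another such kinase, differed by 0.68 ± 0.36 (SE), by 0.38 without aged replicate 1 and by 0.43 without young replicate 1. Of 12 cofactors of sine oculis and EYA proteins, 12 were measured, 8 had a positive difference, with a median of 0.19 that was 0.06 without aged replicate 1, 0.09 without young replicate 1 and 0.05 without young replicate 2, and in limma 0 reached an unadjusted p under 0.05. Smarca4, the BRG1 chromatin remodeller, had the smallest p of them, with readings of 11.61 and 12.15 (aged) and 12.24 and 12.93 (young) and a difference of -0.70 ± 0.38 (SE), while omitting aged replicate 1 gave -0.44 and omitting young replicate 2 gave -0.36.

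Known target genes of MEF2 had a positive median difference, which rested mainly on aged replicate 1. Of 22 listed genes 21 were measured, 15 with a positive difference, and their median was 0.97, beside 0.00 over all probe sets. At an unadjusted p under 0.05, 3 were higher and 1, Myog, was lower (19% of the list, beside 7.35%). Ppargc1a, the PGC-1 alpha coactivator of mitochondrial genes, was read at 11.91 and 11.40 in aged and at 10.002 and 10.23 in young arrays, differing by 1.54 ± 0.33 (SE; limma adjusted p of 0.465). Klf2, a transcription factor gene with the MEF2 site printed above, was read at 8.62 and 8.46 in aged and at 7.68 and 7.45 in young arrays, differing by 0.97 ± 0.29 (SE; limma adjusted p of 0.563). Myom1, encoding the M-band protein myomesin, was read at 8.30 and 8.11 in aged and at 7.504 and 7.28 in young arrays. For these 3 genes, named for their p, both aged arrays were above both young arrays, as for 18.2% of all probe sets. The unadjusted p of Myom1 in limma was 0.0337, and 0.0715 with a trend in the variance prior.

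Aged replicate 1 decided much of the difference of 3 other MEF2 target genes, chosen after their values were seen. Mb, encoding myoglobin, was read at 16.16 and 11.58 in aged and at 12.00 and 9.97 in young arrays. Xirp2, encoding an actin-binding protein of muscle, was read at 11.13 and 8.70 in aged and at 9.23 and 6.96 in young arrays, and Myoz2, encoding a Z-disc protein, at 10.08 and 5.55 against 5.79 and 6.67. Aged replicate 1 was the highest array for each of these. Without aged replicate 1 the median of the list was 0.28, with 12 of 21 positive. Without aged replicate 2 the median was 1.38, and without young replicate 2 it was 0.85. Jun, which has a MEF2 site in its promoter as well, differed by -0.18 ± 0.34 (SE), from -0.46 without aged replicate 1 to 0.09 without aged replicate 2. Xirp2 differed by 1.82 ± 1.02 (SE), by 0.61 without aged replicate 1 and by 0.69 without young replicate 2. The fibre marker mean given above was likewise highest in aged replicate 1, though the reading of its marker Ryr1, near background, was not. The fibre marker list shared 2 genes with the MEF2 target list and 4 with the sine oculis target list. The part of fibre RNA was not tested.

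Known target genes of the sine oculis factors showed the same dependence. Of 18 listed, 17 were measured, 12 with a positive difference, and their median was 0.44. An unadjusted p under 0.05 was reached by 1 higher and 2 lower genes (17.6%, beside 7.35%). The higher gene was Mylk2, encoding the myosin light chain kinase of skeletal muscle, with readings of 7.83 and 7.37 (aged) and 6.86 and 6.55 (young). The lower genes were Myog, which carries the printed MEF3 site, and Myod1. Tnnt3, encoding the fast fibre troponin T, was read at 12.70 and 9.12 in aged and at 8.58 and 7.92 in young arrays, differing by 2.66 ± 1.10 (SE; limma adjusted p of 0.691), and by 0.87 when aged replicate 1 was left out. Without aged replicate 1 the median of the list was 0.05, without aged replicate 2 it was 0.53, and without young replicate 2 it was 0.48.

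**Figure D4:**
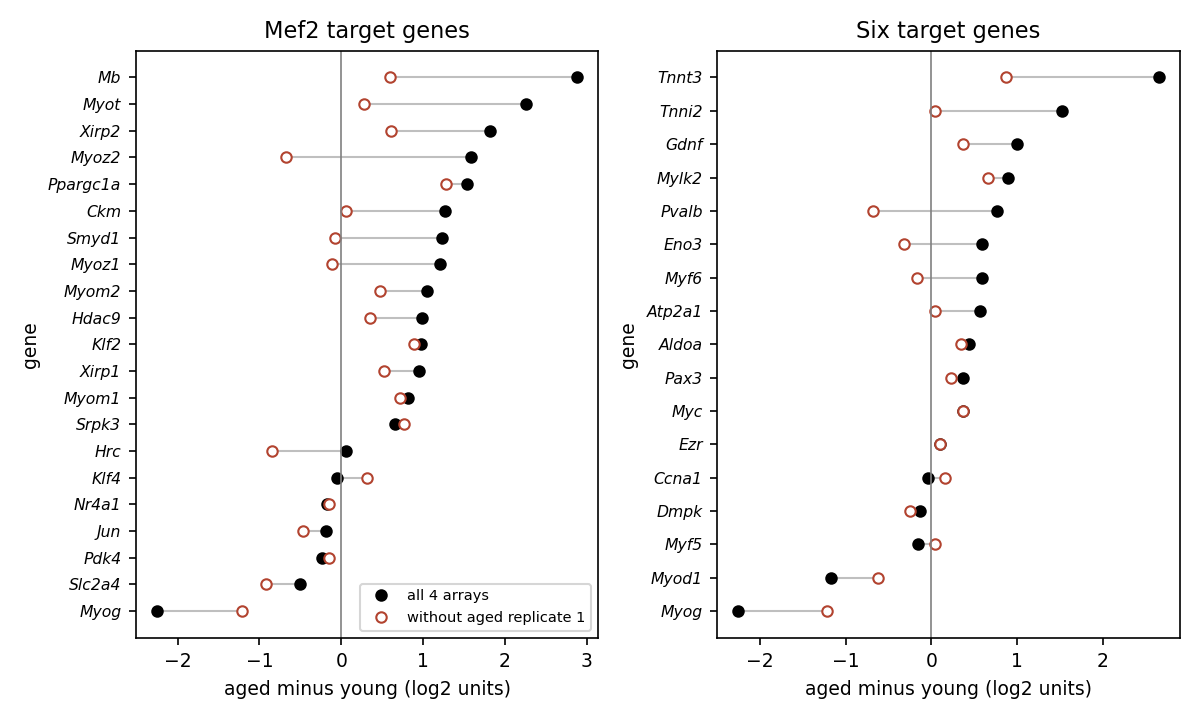
Difference between the ages (horizontal axis, aged minus young, log2 units) of the measured MEF2 target genes (left) and sine oculis target genes (right), with filled points from all 4 arrays and open points without aged replicate 1. The points of Mb (2.89 to 0.60) and Myoz2 (1.58 to -0.68) move left when that array is omitted, while those of Klf2 (0.97 to 0.89), Myom1 (0.81 to 0.72) and Ppargc1a (1.54 to 1.28) move less.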

How the data were processed

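The authors deposited 1 table of log2 values with 28846 entries for 4 Affymetrix whole-transcript arrays. Per the submitters' processing notes it was made with RMA and the Transcriptome Analysis Console, with no versions stated. Per the labels' protocols, each array used cDNA labelled from 1 ng of RNA. The deposited log2 values reach 19.36, above a plain scanner range, so a stretched scale is possible and differences are not turned into folds. Probe sets with 1 gene symbol in the platform annotation (19572) were tested. Entries with no symbol or with several were left out, as were 6640 control entries. Of the controls, 5222 intron and 1324 exon probe sets gave the background and the separation.

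The ages were compared by limma (version 3.58.1, under R 4.3.3; lmFit, eBayes, two-sided, Benjamini-Hochberg over 19572 probe sets), which was tested on simulated data. The number of arrays limits the precision. The members and lists were chosen with earlier results of these data known. All members, all measured family genes and myogenic factors, and up to 4 genes with the smallest p per other list were named; further target genes (Mb, Xirp2, Myoz2, Jun) were named after their values were seen, for their promoter site or their dependence on 1 array. Alternatives covered normalization, a filter on dim probe sets, variance priors, the replicate block, every entry, averaged probe sets and leaving out each array.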

Additional observations from a re-analysis of the deposited data

How the results depend on the processing

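No member passed the adjusted threshold under any of the 12 alternatives run (adjusted p of 0.122 to 1.0), and 100 of 107 member values kept their sign. Many of these values could not change. The dim filter, the variance priors, the replicate block, every entry and averaged probe sets leave a member's difference as it is. A sign could turn only with another normalization or with an array left out. The sign turned for Mef2c without an aged array (-0.43 to 1.31 over the arrays left out in turn), Six4 (-1.08 to 0.96), Eya1 (-0.12 to 0.70) and Eya4 (-0.34 to 0.37, and -0.0185 with arrays centred on their median). Members at an unadjusted p under 0.05 numbered 1, against 2 with a trend in the variance prior and 0 to 2 when arrays were left out. All probe sets at that p numbered 838 with dim probe sets left out, by construction from fewer genes tested, where MEF2 regulators numbered 0. With arrays left out in turn, 0 to 1 probe sets passed the adjusted threshold, and at an unadjusted p under 0.05 there were 0 to 3 MEF2 regulators, 0 to 1 sine oculis and EYA cofactors, 1 to 12 MEF2 targets and 0 to 8 sine oculis targets; these list counts were added after seeing the data. Same-numbered arrays did not deviate together (r of -0.05 across probe sets, which are not independent replicates). With 2 arrays per group, this check cannot decide whether the numbers pair the samples. With the replicate number as a block, 2 probe sets passed the adjusted threshold, neither a member. In that setting 5 sine oculis targets were at an unadjusted p under 0.05, beside 1422 of all probe sets. Where 1 array is left out of a group, the lone array is assumed to vary like the other group. The cause of these changes was not tested beyond the array named. A level near the intron median, as for Six5 and the lower Eya2 reading, limits what a difference can show.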
